A study of Mus musculus with 24 samples.

Results

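The genes described here make or limit nitric oxide in mouse bone marrow-derived macrophages (BMDMs): Nos2, Arg1, Arg2, Ass1, Asl, Slc7a2, Gch1, Pts and Spr. They were taken by name from the table of 22165 genes, where each was the row whose Ensembl identifier carries that symbol in GENCODE release M21, and all 9 of the 9 passed the filter on low counts that left 11878 genes for testing. No expression value entered the rule, but the 9 genes were chosen with earlier results of these data known. The libraries came from BMDMs of wild-type (WT, C57BL/6N) and Irg1-/- mice aged 8 to 20 weeks, grown for 7 days with 20 ng/ml M-CSF. Irg1, listed as Acod1 in the annotation, encodes the enzyme that makes itaconate. Cells of either genotype were left unstimulated (Unstim.), were taken through a mock first period, a change of medium and 1 h of rest before 100 ng/ml LPS for 3 h (LPS 3h), were given LPS for 24 h and harvested (LPS 24h), or were given LPS for 24 h, rested in fresh medium for 1 h and given LPS again for 3 h (LPS 24h->LPS 3h, the tolerized cells). Each of the 8 groups held 3 independent cultures, and the number of mice behind them was not stated. The labels give no mock handling for Unstim. cells, so that in LPS 3h against Unstim. the LPS and the change of medium cannot be told apart. No change of medium or rest is given for LPS 24h cells. In tolerized against LPS 24h cells, the second LPS and this handling therefore cannot be told apart. Between LPS 3h and LPS 24h, time and this handling cannot be told apart. The design asked how the macrophage response to LPS differs without Irg1, both at the first exposure and after tolerization.

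Inducible nitric oxide synthase, the product of Nos2, turns L-arginine into nitric oxide and citrulline and needs tetrahydrobiopterin as a cofactor. Arginine enters macrophages through cationic transporters such as CAT2, the product of Slc7a2, and the arginases Arg1 (cytosolic) and Arg2 (mitochondrial) use the same amino acid to make ornithine and urea. Ass1 and Asl rebuild arginine from citrulline. Tetrahydrobiopterin is made from GTP by Gch1, the rate-limiting enzyme, followed by Pts and Spr.

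Upstream sequence was available in the RefSeq promoter table (GRCm38.p6) for 4 of the 9 genes, namely Ass1, Gch1, Pts and Spr, and not for Nos2, Arg1, Arg2, Asl and Slc7a2. The 250 bases before the start site of Gch1 and of Spr are shown because these enzymes stand at the first and last step of the same synthesis and moved in opposite directions after 3 h of LPS. Capitals mark every match, on either strand, to the CRE pattern TGACG, to the CCAAT box or to the TATA pattern, whose letters are TATAAA. Longer patterns, such as those of NF-kappaB and of interferon-responsive elements, are not reported here.
Gch1 (chr14:47189414-47189663, minus strand): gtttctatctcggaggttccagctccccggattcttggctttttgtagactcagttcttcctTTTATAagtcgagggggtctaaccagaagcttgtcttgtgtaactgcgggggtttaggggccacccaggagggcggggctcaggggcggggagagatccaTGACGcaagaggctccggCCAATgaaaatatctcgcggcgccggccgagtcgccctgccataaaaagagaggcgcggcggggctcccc
Spr (chr6:85137765-85138014, minus strand): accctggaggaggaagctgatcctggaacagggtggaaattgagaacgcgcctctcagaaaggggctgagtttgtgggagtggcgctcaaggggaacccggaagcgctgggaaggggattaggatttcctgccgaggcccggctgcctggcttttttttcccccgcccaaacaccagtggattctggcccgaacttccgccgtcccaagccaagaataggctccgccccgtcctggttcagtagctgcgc
In the Gch1 window the CRE pattern was matched from base -88 to base -84 before the start site and the CCAAT box from base -70 to base -66. The reverse complement of the TATA pattern was matched from base -188 to base -183, and no match overlapped another. The windows of Spr, Ass1 and Pts held none of the 3 patterns. Of the 32851 promoter windows of the same length, 17.8% held the CRE pattern, 33.8% the CCAAT box and 12.4% the TATA pattern. A match of letters describes the window and is not a binding site, and no match says only that these letters are not in it.

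Values below are normalized CPM, the reads of a gene scaled to library size, in the order of cultures 1, 2 and 3, from libraries that counted the 3' ends of transcripts and held 3927378 to 20430359 reads on genes. Log2 fold changes, their standard errors (SE) and Benjamini-Hochberg adjusted p values come from edgeR's quasi-likelihood test over all 11878 genes, and a gene was called at an adjusted p under 0.05. Acod1 followed the genotype labels, with 3794 to 28063 CPM in the 9 LPS-treated WT libraries and 1.58 to 26.4 CPM in the 9 LPS-treated Irg1-/- libraries. All 8 macrophage markers were detected, with a summed level of 3319 to 9833 CPM per library. Summed neutrophil markers, mostly S100a8 and S100a9, stood at 385 to 672 CPM in Unstim. and LPS 3h libraries and at 64.7 to 229.7 CPM in LPS 24h and tolerized libraries. Summed fibroblast markers fell in the ranges 263 to 434 CPM and 103 to 246 CPM in the same sets of libraries, and dendritic cell markers in the ranges 17.0 to 34.8 CPM and 4.28 to 14.8 CPM. Of the other neutrophil genes Ngp reached 64.7 CPM (median 18.8), Camp 24.6 and Elane 3.25 CPM, while Ly6g and Mpo did not exceed 1.80 CPM in any library. The part of these cells in the differences between early and late times was not tested, and in bulk libraries fewer cells of a type and less RNA per cell cannot be told apart. Library labels carry a prefix, MB_1 to MB_4, whose meaning was not stated. All 6 Unstim. libraries had the last of these, which no LPS-treated Irg1-/- library had, so that the prefix and the LPS treatment cannot be told apart in Irg1-/- cells against Unstim. Nor was any prefix shared by Irg1-/- LPS 3h and Irg1-/- LPS 24h libraries, so their differences cannot be checked within a prefix. MB_3 was carried only by cultures 2 and 3 of Irg1-/- LPS 3h. In a fit with the prefix as a term, the level of that group therefore rests on culture 1 alone.

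Nos2 (chromosome 11, 78920787 to 78960254, plus strand) was close to silent without LPS. WT Unstim. cultures held 0.0644, 0.191 and 0.195 CPM, from 1, 2 and 4 reads, and Irg1-/- Unstim. cultures held 0.156, 0 and 0.0535 CPM, from 1, 0 and 1 reads. After 3 h of LPS the level was 184, 82.1 and 90.3 CPM in WT cells and 380, 79.6 and 97.8 CPM in Irg1-/- cells. No stimulated library came near an unstimulated one, while culture 1 stood above the other 2 in both genotypes. Summed over the cultures and scaled to library size, Nos2 reads were 739 times those of Unstim. in WT cells (95% counting interval 358 to 1839) and 3329 times in Irg1-/- cells (921 to 27499). These intervals cover counting error only, and with 2 reads in all the Irg1-/- baseline is barely measured. edgeR called both rises, with adjusted p = 9.58e-12 in WT cells and 5.95e-12 in Irg1-/- cells.

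At 24 h Nos2 stood at 95.4, 127 and 74.0 CPM in WT cells and at 61.2, 37.3 and 96.9 CPM in Irg1-/- cells. In tolerized cells it stood at 210, 65.3 and 72.4 CPM in WT and at 58.9, 83.0 and 64.5 CPM in Irg1-/- cultures. Nos2 thus stayed high through 24 h, and the second dose of LPS was followed by no called change from the 24 h level in either genotype (log2 fold change 0.23 ± 0.47 SE, adjusted p = 0.877 in WT and 0.08 ± 0.47, adjusted p = 0.974 in Irg1-/- cells, edgeR). The 95% intervals of these changes, -0.72 to 1.18 and -0.87 to 1.03, leave room for a 2-fold rise and for a fall of less than 2-fold. In WT cells the LPS 24h level differed from LPS 3h by a log2 fold change of -0.27 ± 0.47 (adjusted p = 0.695, edgeR), and the groups overlapped. In Irg1-/- cells Nos2 was called lower at 24 h than at 3 h (-1.51 ± 0.48, adjusted p = 0.0137, edgeR) and lower in tolerized cells than at 3 h (-1.44 ± 0.48, adjusted p = 0.0237). Both calls rested on culture 1 of Irg1-/- LPS 3h with its 380 CPM, without which the log2 fold changes were -0.51 (adjusted p = 0.40) and -0.40 (adjusted p = 0.545). The first was also lost without culture 2 of Irg1-/- LPS 24h (-1.29, adjusted p = 0.0716), and the second without culture 1 or 3 of the tolerized Irg1-/- cells (-1.37, adjusted p = 0.0838 and -1.41, adjusted p = 0.0692) and with the culture number as a block (-1.13, adjusted p = 0.0503). The groups overlapped in both comparisons. The 1 pair of tolerized and LPS 3h Irg1-/- libraries with a shared prefix differed by -2.69, and no label prefix was shared by Irg1-/- LPS 3h and LPS 24h libraries. Ranked by mean, the 6 stimulated groups ran from 65.1 ± 30.0 CPM (SD, n = 3) in Irg1-/- LPS 24h to 186 ± 169 CPM in Irg1-/- LPS 3h, and each overlapped the next in the order.

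**Figure D1:**
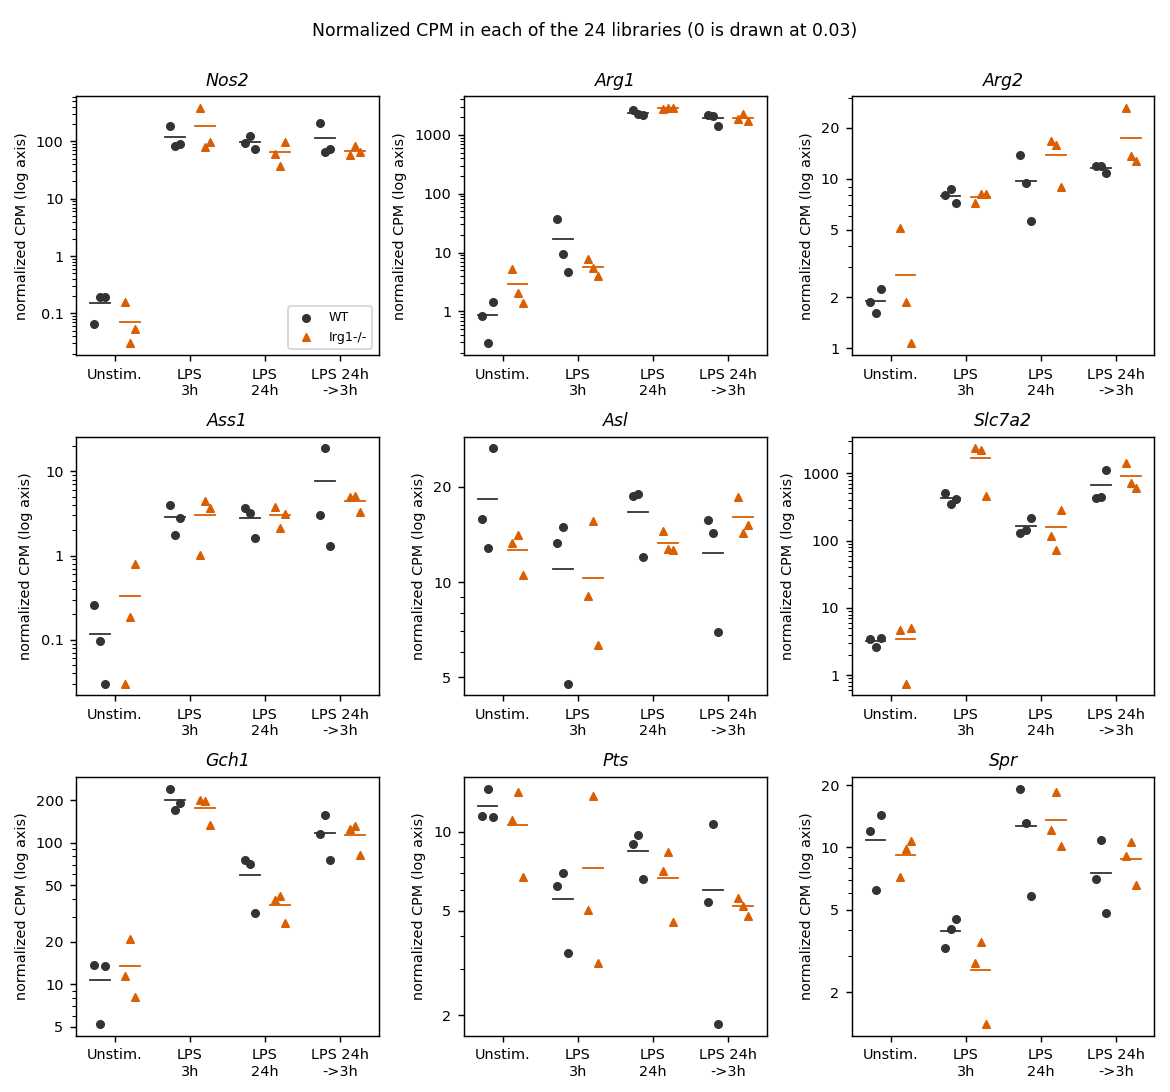
Normalized CPM on log axes for each of the 9 genes, with 1 point per culture, a bar at the mean of the 3 cultures, and WT and Irg1-/- cells side by side in the 4 treatments. Nos2 and Arg1 separate by time: Nos2 is at 37.3 CPM or more in every LPS-treated library, while Arg1 does not exceed 37.2 CPM at LPS 3h and is at 1437 CPM or more in every LPS 24h and LPS 24h->LPS 3h library.

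Arg1 (chromosome 10, 24915221 to 24927484, minus strand), the cytosolic arginase, rose late. It stood at 0.837, 0.286 and 1.46 CPM in WT Unstim. cells and at 5.30, 2.07 and 1.39 CPM in Irg1-/- Unstim. cells. At LPS 3h it was 37.2, 9.60 and 4.64 CPM in WT cells and 7.72, 5.40 and 4.05 CPM in Irg1-/- cells. WT cultures at 3 h all lay above WT Unstim., whereas the Irg1-/- groups overlapped. By 24 h Arg1 reached 2641, 2251 and 2148 CPM in WT and 2729, 2839 and 2840 CPM in Irg1-/- cells, levels that no earlier library approached. In tolerized cells it was 2176, 2122 and 1437 CPM in WT and 1854, 2221 and 1734 CPM in Irg1-/- cultures.

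The rise of Arg1 from LPS 3h to LPS 24h was 7.12 ± 0.59 on the log2 scale in WT cells (adjusted p = 1.67e-10, edgeR) and 8.91 ± 0.65 in Irg1-/- cells (adjusted p = 4.8e-12). Within the label prefixes that WT cultures shared, the log2 difference was 6.14, 7.85 and 8.80. Against Unstim. the 24 h change was 11.30 ± 0.71 in WT and 9.97 ± 0.68 in Irg1-/- cells, adjusted p = 2.63e-13 and 2.78e-12. The second dose of LPS was followed by no called change (-0.30 ± 0.45, adjusted p = 0.83 in WT and -0.53 ± 0.45, adjusted p = 0.666 in Irg1-/- cells, edgeR). All 3 tolerized Irg1-/- cultures nonetheless lay below all 3 at LPS 24h. At 3 h Arg1 was called higher in WT cells (4.18 ± 0.57, adjusted p = 5.39e-07, edgeR) and not in Irg1-/- cells (1.06 ± 0.54, adjusted p = 0.128). The Irg1-/- change was called without culture 1 of Unstim. (1.86, adjusted p = 0.0211) and with no filter on low counts (1.06, adjusted p = 0.0307). The difference between these responses, -3.12 ± 0.77, was the largest in size among the 45 differences in response over the 9 genes, and it did not pass the adjusted threshold (unadjusted p = 0.000316, adjusted p = 0.468, edgeR).

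The order of Arg1 and Nos2, compared within each library, reversed between LPS 3h and LPS 24h libraries. The log2 ratio of Arg1 to Nos2, with 0.5 CPM added to each, was -3.16 ± 0.93 (SD, n = 3) at LPS 3h and 4.59 ± 0.39 at LPS 24h in WT cells, and -4.58 ± 0.89 and 5.52 ± 0.68 in Irg1-/- cells. In tolerized cells it was 4.23 ± 0.82 in WT and 4.81 ± 0.13 in Irg1-/- cultures. Every LPS 3h library had a negative ratio and every LPS 24h and LPS 24h->LPS 3h library a positive one, in both genotypes. The Unstim. ratios, 0.98 ± 0.70 and 2.43 ± 0.69, rested on Nos2 at 0 to 4 reads per library and depend on the added 0.5 CPM.

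**Figure D2:**
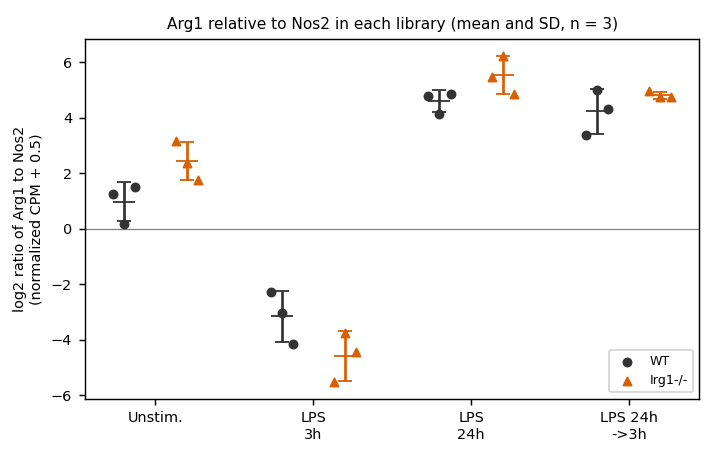
Log2 ratio of Arg1 to Nos2 (normalized CPM + 0.5) in each library by treatment, with the mean and SD of 3 cultures for WT and Irg1-/- cells. All 6 LPS 3h libraries lie below 0, between -5.53 and -2.30, and all 12 libraries that had 24 h of LPS lie above 0, between 3.37 and 6.23.

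Arg2 (chromosome 12, 79130777 to 79156301, plus strand), the mitochondrial arginase, changed less. It went from 1.87, 1.62 and 2.24 CPM in WT Unstim. to 8.02, 8.65 and 7.15 CPM at LPS 3h, and from 5.14, 1.88 and 1.07 CPM to 7.21, 8.10 and 8.09 CPM in Irg1-/- cells, with no overlap in either genotype. The changes were 2.04 ± 0.47 (adjusted p = 0.000945, edgeR) and 1.58 ± 0.48 (adjusted p = 0.00972) on the log2 scale. The call in Irg1-/- cells was lost without culture 3 of Unstim. (1.18, adjusted p = 0.0615, edgeR) and in a fit of the compared groups alone (1.62, adjusted p = 0.0762). With the label prefix as a term, which leaves culture 1 of LPS 3h alone, the change was 0.92. At 24 h Arg2 remained above Unstim. by 2.31 ± 0.47 in WT and 2.41 ± 0.47 in Irg1-/- cells (adjusted p = 0.000439 and 0.000403, edgeR). The highest value of any library was 26.1 CPM, in culture 1 of the tolerized Irg1-/- cells, which were called above Irg1-/- LPS 3h by 1.17 ± 0.44 (adjusted p = 0.0478, edgeR). That call passed narrowly. It was lost under 5 of the 7 other settings, among them the label prefix, where LPS 3h rests on culture 1 alone. It was also lost when any of 5 of the 6 cultures was left out (adjusted p up to 0.29, edgeR). Arg2 lies opposite Vti1b, which had 28333 reads in the 24 libraries, and since the use of strand in counting was not stated, reads of the overlapping ends cannot be told apart.

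Slc7a2 (chromosome 8, 40862396 to 40922308, plus strand), which encodes the arginine transporter CAT2, rose at 3 h and fell back by 24 h. It rose again after the change of medium and second dose. In WT cells it went from 3.41, 2.67 and 3.56 CPM in Unstim. to 506, 346 and 417 CPM at LPS 3h, 129, 144 and 215 CPM at LPS 24h, and 430, 449 and 1114 CPM in tolerized cells. In Irg1-/- cells the corresponding values were 4.68, 0.754 and 5.03 CPM, then 2329, 2219 and 457 CPM, then 116, 73.3 and 284 CPM, and then 1409, 711 and 606 CPM. Each step was seen without overlap of the groups in both genotypes. The first rise was 7.03 ± 0.66 in WT cells (adjusted p = 4.27e-10, edgeR) and 8.82 ± 0.72 in Irg1-/- cells (adjusted p = 1.8e-11). The fall from 3 h to 24 h was -1.38 ± 0.51 in WT (adjusted p = 0.038) and -3.40 ± 0.55 in Irg1-/- cells (adjusted p = 1.3e-05). The rise after restimulation was 2.03 ± 0.52 in WT (adjusted p = 0.0208) and 2.53 ± 0.53 in Irg1-/- cells (adjusted p = 0.00236). Set against LPS 3h, the tolerized level differed by 0.65 ± 0.50 (adjusted p = 0.356, 95% interval -0.38 to 1.68) in WT and -0.88 ± 0.50 (adjusted p = 0.199, -1.91 to 0.15) in Irg1-/- cells, where it was called lower with no filter on low counts (-0.87, adjusted p = 0.0413).

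In Irg1-/- cells the Slc7a2 calls of the fall and of the rise after restimulation held whichever culture was left out. The Irg1-/- fall could not be checked within a label prefix, since LPS 3h and LPS 24h libraries shared none. In WT cells the restimulation call was lost without culture 1 or 2 of LPS 24h (1.89, adjusted p = 0.074 and 1.97, adjusted p = 0.0954) or without culture 3 of tolerized cells (1.44, adjusted p = 0.173). Within the 3 label prefixes the WT log2 differences were 1.74, 1.64 and 2.37, all upward, and the 1 prefix shared by Irg1-/- libraries gave 2.29. The fall from 3 h to 24 h in WT cells was lost without culture 1 or 3 of LPS 3h, or culture 1 or 2 of LPS 24h (adjusted p up to 0.111), with -1.97, -1.26 and -0.95 within the prefixes. Without culture 3 of the tolerized WT cells, the WT tolerized level differed from LPS 3h by -0.0033 on the log2 scale.

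Ass1 (chromosome 2, 31470207 to 31520672, plus strand), which joins citrulline and aspartate, was a low gene that rose with LPS. Its reads were 4, 1 and 0 in WT Unstim. and 22, 15 and 21 in WT LPS 3h, and 0, 1 and 15 in Irg1-/- Unstim. and 10, 28 and 21 in Irg1-/- LPS 3h. Scaled to library size, the summed reads were 25.1 times those of Unstim. in WT cells at LPS 3h (95% counting interval 10.2 to 80.3) and 5.17 times in Irg1-/- cells (2.93 to 9.62). edgeR called Ass1 higher at 3 h and at 24 h in WT cells (adjusted p = 0.000996 and 0.00189) and in Irg1-/- cells (adjusted p = 0.018 and 0.0352). The Irg1-/- baseline rested on the 15 reads of culture 3. Both Irg1-/- calls were lost when culture 1 or 2 of Unstim. was left out (adjusted p = 0.0549 to 0.134, edgeR). The call at 3 h was also lost without culture 2 of LPS 3h. The call at 24 h was also lost without culture 1 or 3 of LPS 24h and in a fit of the compared groups alone (2.84, adjusted p = 0.0533). With the label prefix as a term the Irg1-/- change at 24 h was 1.83 (adjusted p = 0.346, edgeR). That at 3 h was -0.28 in this fit, which leaves culture 1 of LPS 3h alone, with its 10 reads. Culture 2 of tolerized WT cells had 193 Ass1 reads (18.8 CPM) against 26 and 16 in the other two, and no change of Ass1 between LPS-treated groups was called.

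Asl (chromosome 5, 130011258 to 130029247, minus strand), which splits argininosuccinate to arginine, was expressed in all 24 libraries, at 4.77 to 26.5 CPM. It passed in none of the 10 comparisons of treatments, with a lowest unadjusted p of 0.0746 (edgeR), except that with the label prefix as a term it was called lower at LPS 3h in WT cells (-1.60, adjusted p = 0.00457, and -1.84 within the 1 shared prefix). Its largest log2 fold changes were -0.74 ± 0.40 at LPS 3h in WT cells (95% interval -1.57 to 0.08, adjusted p = 0.163, edgeR) and 0.64 ± 0.40 between tolerized and LPS 3h Irg1-/- cells (-0.19 to 1.46, adjusted p = 0.248). Ass1 and Asl act in sequence.

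Gch1 (chromosome 14, 47153895 to 47189413, minus strand), whose upstream sequence is given above, followed a time course like that of Slc7a2. It was at 13.7, 5.25 and 13.5 CPM in WT Unstim., 241, 171 and 190 CPM at LPS 3h, 75.5, 71.2 and 32.1 CPM at LPS 24h, and 116, 158 and 76.0 CPM in tolerized cells. In Irg1-/- cells the values were 11.4, 20.9 and 8.08 CPM, then 201, 198 and 133 CPM, then 39.7, 42.3 and 27.2 CPM, and then 125, 132 and 81.3 CPM. The groups next to each other in time did not overlap in either genotype. The rise at 3 h was 4.21 ± 0.43 in WT (adjusted p = 2.02e-09, edgeR) and 3.74 ± 0.42 in Irg1-/- cells (adjusted p = 1.72e-08). The fall to 24 h was -1.75 ± 0.38 (adjusted p = 0.00073) and -2.29 ± 0.39 (adjusted p = 2.89e-05), to a level still called above Unstim. by 2.45 ± 0.40 in WT and 1.46 ± 0.39 in Irg1-/- cells (adjusted p = 2.28e-05 and 0.00928). On restimulation Gch1 rose by 1.63 ± 0.38 in Irg1-/- cells (adjusted p = 0.00697, edgeR), a call that held whichever culture was left out (adjusted p up to 0.0492). In WT cells the change was 0.97 ± 0.38 (95% interval 0.20 to 1.74) and was not called (adjusted p = 0.165). The difference between these responses was 0.66 ± 0.53 (adjusted p = 0.821). Within label prefixes the restimulation change was 0.61, 1.15 and 1.24 in WT cells and 1.53 in Irg1-/- cells. The Irg1-/- call against Unstim. at 24 h was lost without culture 1 or 3 of Unstim. (adjusted p = 0.0503 and 0.0636) and with the label prefix as a term (0.79, adjusted p = 0.36).

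Spr (chromosome 6, 85130176 to 85137766, minus strand), sepiapterin reductase at the last step of the synthesis, moved against Gch1. It fell from 12.0, 6.21 and 14.3 CPM to 3.28, 4.03 and 4.50 CPM at LPS 3h in WT cells, and from 7.17, 9.80 and 10.7 CPM to 2.78, 3.49 and 1.41 CPM in Irg1-/- cells. At LPS 24h it was at 19.2, 13.1 and 5.83 CPM in WT and 12.2, 18.6 and 10.2 CPM in Irg1-/- cells, overlapping Unstim. in both. The fall was -1.46 ± 0.46 in WT (adjusted p = 0.0137, edgeR) and -1.84 ± 0.48 in Irg1-/- cells (adjusted p = 0.00291), and the recovery from 3 h to 24 h was 1.68 ± 0.46 (adjusted p = 0.00562) and 2.39 ± 0.48 (adjusted p = 0.000203). The WT fall was lost without culture 3 of Unstim. (-1.18, adjusted p = 0.0757) or culture 1 of LPS 3h (-1.30, adjusted p = 0.0583), and the WT recovery without culture 1 of LPS 24h (1.20, adjusted p = 0.0631). Within prefixes the WT recovery was 2.49, 1.66 and 0.36. A pseudogene of Spr, Spr-ps1, is annotated but is no row of the table, so reads shared with it are uncertain, as are those of Gch1 with a pair of processed pseudogenes within its span. Tolerized Irg1-/- cells were also called above Irg1-/- LPS 3h (1.77 ± 0.47, adjusted p = 0.00537, edgeR). With the label prefix as a term, which leaves culture 1 of LPS 3h alone, the change was 1.70.

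Pts (chromosome 9, 50521617 to 50528724, minus strand), which stands between Gch1 and Spr, was at 11.5, 14.6 and 11.4 CPM in WT Unstim. and 6.20, 6.99 and 3.44 CPM in WT LPS 3h, without overlap. Its change of -1.17 ± 0.51 did not pass (95% interval -2.21 to -0.13, adjusted p = 0.0796, edgeR), and was called with the culture number as a block (-1.25, adjusted p = 0.0198), with the label prefix as a term (-1.97, adjusted p = 0.00679) and in a fit of the compared groups alone (-1.10, adjusted p = 0.04). In Irg1-/- cells, where culture 2 at LPS 3h had 13.7 CPM against 5.05 and 3.17 CPM, the change was -0.54 ± 0.51 (adjusted p = 0.444, edgeR). With the label prefix as a term, which leaves culture 1 of LPS 3h (5.05 CPM) alone, it was -2.36. At 3 h Gch1 thus rose, Spr fell, and Pts in WT cells was called lower or not called depending on the fit.

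**Figure D3:**
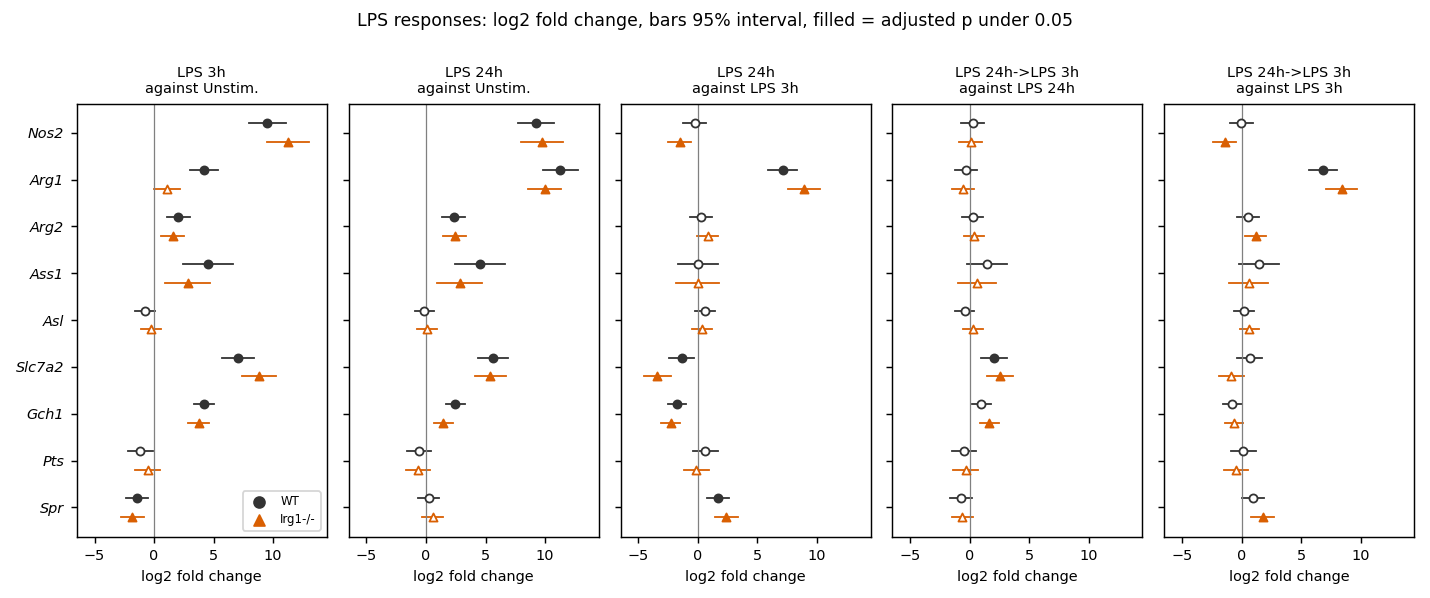
Log2 fold change of each gene in 5 comparisons of treatments, for WT (circles) and Irg1-/- (triangles) cells, with 95% intervals and filled symbols at an adjusted p under 0.05 (edgeR). Nos2, Slc7a2 and Gch1 are far right of 0 at LPS 3h, Arg1 at LPS 24h, and after restimulation only Slc7a2 in both genotypes and Gch1 in Irg1-/- cells are filled.

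Counted together, 7 of the 9 genes were called at LPS 3h against Unstim. in WT cells (6 higher, 1 lower), where 32% of all tested genes were called (15.8% higher, 16.3% lower), and 6 of 9 in Irg1-/- cells (5 higher, 1 lower), where 35.9% were (17% higher, 18.9% lower). At LPS 24h against Unstim., 6 of 9 were called, all higher, in either genotype, against 16.2% of tested genes in WT and 13.7% in Irg1-/- cells (9.25% and 7.31% called higher). The median log2 fold change of the 9 genes was 4.18 in WT and 1.58 in Irg1-/- cells at LPS 3h, beside -0.18 and -0.20 over all tested genes, and 2.45 and 2.41 at LPS 24h, beside 0.0017 and -0.0040. From LPS 3h to LPS 24h, 4 genes were called in WT cells and 5 in Irg1-/- cells, against 32.3% and 35% of all tested. The second dose of LPS, set against LPS 24h, was followed by few calls of any kind. It was followed by a call for 1 of the 9 (Slc7a2) in WT cells, where 3.99% of tested genes were called, and for 2 of 9 (Slc7a2 and Gch1) in Irg1-/- cells, where 5.14% were. Tolerized cells set against LPS 3h gave 1 call in WT (Arg1) and 4 in Irg1-/- cells (Arg1, Arg2 and Spr higher, Nos2 lower), against 25.5% and 27.2% of tested genes. Since the 9 genes were chosen with earlier results of these data known, these counts and medians are given as descriptions.

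None of the 9 genes was called between Irg1-/- and WT cells in any of the 4 treatments. Over these 36 tests the lowest adjusted p was 0.31, and 3 had an unadjusted p under 0.05 (edgeR). DESeq2 also called 0 of 36. An unadjusted p under 0.05 was found for 5.2% of all tested genes in Unstim., 5.84% at LPS 3h, 10.1% at LPS 24h and 7.88% in tolerized cells. Between 0.00842% and 0.598% of all tested genes were called in these comparisons, 0.0421% in Unstim., 0.00842% at LPS 3h, 0.598% at LPS 24h and 0.118% in tolerized cells. The Slc7a2 value at LPS 3h was the largest in size, at 1.98 ± 0.52 higher in Irg1-/- cells (unadjusted p = 0.000619, adjusted p = 0.31, 95% interval 0.92 to 3.04). Here 2 of the 3 Irg1-/- cultures, at 2329 and 2219 CPM, stood above all WT cultures and the third, at 457 CPM, among them. The 1 pair of libraries with a shared prefix differed by 2.75. Arg1 at LPS 3h was lower in Irg1-/- cells by -1.54 ± 0.50 (unadjusted p = 0.00426, adjusted p = 0.507) and higher in Unstim. by 1.58 ± 0.59 (unadjusted p = 0.0113, adjusted p = 0.662), with overlapping groups in both. The first rested on culture 1 of WT LPS 3h at 37.2 CPM, and the pair with a shared prefix differed by -0.31. Without any filter on low counts, edgeR called both of the LPS 3h differences, Slc7a2 (adjusted p = 9.67e-06) and Arg1 (adjusted p = 0.0212).

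For Nos2 the genotype difference was 0.65 ± 0.47 at LPS 3h (95% interval -0.31 to 1.60), -0.60 ± 0.47 at LPS 24h (-1.55 to 0.36) and -0.75 ± 0.47 in tolerized cells (-1.71 to 0.21), with adjusted p from 0.759 to 0.974 (edgeR). The sign at LPS 3h was that of culture 1 of Irg1-/- cells, without which it was -0.41, and without culture 1 of tolerized WT cells the last value was 0.021. Gch1 at LPS 24h was -0.71 ± 0.38 (95% interval -1.48 to 0.06, adjusted p = 0.547). These intervals do not exclude a 2-fold difference in at least 1 direction. In the 45 tests of whether a response differed by genotype, none was called (lowest adjusted p = 0.468, edgeR, and 0 of 45 by DESeq2) and 7 had an unadjusted p under 0.05, namely 3 for Arg1, 3 for Slc7a2 and 1 for Nos2. Of all tested genes, 0.00842% were called at LPS 3h against Unstim., 0.21% at LPS 24h against Unstim., 0% from LPS 3h to LPS 24h, 0.00842% on restimulation and 0% in tolerized cells against LPS 3h. The unadjusted p was under 0.05 for 5.68%, 8.14%, 6.47%, 8.66% and 7.23% of them.

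**Figure D4:**
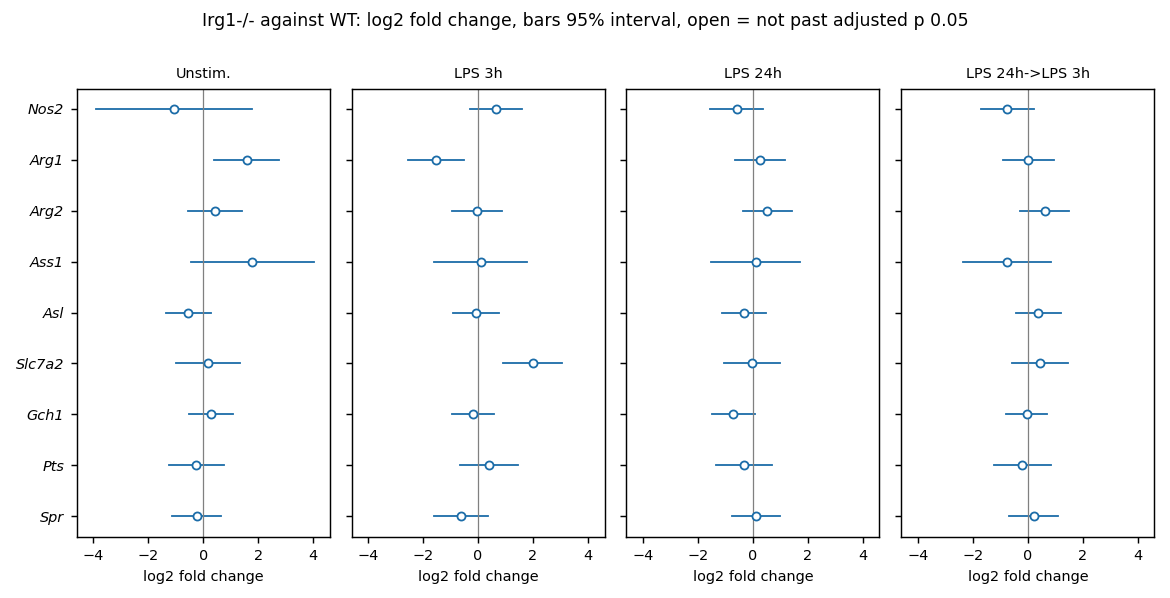
Log2 fold change of Irg1-/- against WT cells for each gene in the 4 treatments, with 95% intervals and open symbols where the adjusted p was 0.05 or more (edgeR). All 36 symbols are open, and the intervals of Slc7a2 and Arg1 at LPS 3h and of Arg1 in Unstim. do not reach 0.

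Over the 24 libraries, the genes whose log2 CPM was most like that of Nos2, out of 11877 others, included Zbp1 (Pearson r = 0.981), Il1rn (0.974), Ccl5 (0.971) and Cxcl9 (0.969). Those most like Arg1 were Tgfbi (0.982), Bst1 (0.975) and Slc16a3 (0.967), and those most like Gch1 were Gpr84 (0.973), Il1a (0.968) and Ccrl2 (0.964). Among the 9 genes, Nos2 was most like Slc7a2 (0.936) and then Gch1 (0.857), Slc7a2 and Gch1 had r = 0.880, and Nos2 and Arg1 had r = 0.647. These correlations share the contrast of stimulated with unstimulated libraries, library depth and label prefix, and are given as descriptions.

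Of 59 other genes of the pathway, 58 were in the table and 47 were tested. At LPS 3h, 14 rose and 5 fell in WT cells, where 15.8% of all tested genes rose and 16.3% fell, and 13 rose and 6 fell in Irg1-/- cells, where 17% rose and 18.9% fell. Nos1 and Nos3, the neuronal and endothelial synthases, had at most 7 and 10 reads in any library and were not tested. The 6 transcription factors known to act at the Nos2 promoter rose together at LPS 3h in WT cells, among them Irf1 (5.10 ± 0.34, adjusted p = 1.48e-13, edgeR), and 5 of them rose in Irg1-/- cells, with a median over the 6 of 3.97 and 3.55. At 24 h, 3 of the 6 were called above Unstim. in WT cells and 2 in Irg1-/- cells, Stat2 among them in both. The medians were then 1.18 and 0.40, and 9.25% and 7.31% of all tested genes were called higher. From LPS 3h to LPS 24h, 3 of the 6 were called lower in either genotype, where 32.3% (WT) and 35% (Irg1-/-) of all tested genes were called. Irf1 was the only one of the 47 called between genotypes, lower in Irg1-/- cells at LPS 24h (77.5 against 185 CPM, -1.25 ± 0.29, adjusted p = 0.0314, edgeR). All Irg1-/- LPS 24h libraries carried prefix MB_1, which only 1 WT LPS 24h library had, so that genotype and prefix are not fully separated. Other fits of this call are not reported here.

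Of 4 tested genes of cationic amino acid transport, 3 rose in WT cells at LPS 3h and again 3 at LPS 24h against Unstim., and 2 and 0 did in Irg1-/- cells. Among all tested genes 15.8% and 9.25% rose in WT and 17% and 7.31% in Irg1-/- cells. Slc7a1, the constitutive arginine transporter CAT1, rose at LPS 3h by 2.58 ± 0.36 in WT (adjusted p = 7.16e-07, edgeR) and 1.49 ± 0.35 in Irg1-/- cells (adjusted p = 0.00101). Slc7a7, the light chain of a transporter that exports arginine, rose by 1.77 ± 0.40 and 1.79 ± 0.40 (adjusted p = 0.00075 and 0.000639, edgeR). Among 10 polyamine genes, Odc1, which decarboxylates ornithine, rose by 2.98 ± 0.37 and 2.80 ± 0.37 at LPS 3h (adjusted p = 1e-07 and 3.08e-07, edgeR), and Paox, a polyamine oxidase, fell by 2.48 and 1.90. From LPS 3h to LPS 24h, 2 of the 10 rose and 3 fell in WT cells, and 2 rose and 4 fell in Irg1-/- cells. In this comparison 32.3% of all tested genes were called in WT and 35% in Irg1-/- cells. Of 6 ornithine and proline genes, 1 fell in WT and 2 in Irg1-/- cells at LPS 3h, where 16.3% and 18.9% of all tested genes fell. Of 5 tested genes for recycling and regulation of tetrahydrobiopterin, 2 fell in WT and 3 in Irg1-/- cells at LPS 3h, among them carbonyl reductase Cbr1 (-2.11 ± 0.43, adjusted p = 0.000264 and -1.44 ± 0.43, adjusted p = 0.00855, edgeR). Ddah1, which degrades the methylarginine inhibitors of nitric oxide synthase, fell at LPS 24h by 1.65 in WT and 3.00 in Irg1-/- cells (adjusted p = 0.023 and 0.000101, edgeR). Thioredoxin reductase Txnrd1 is in the same list, that of genes acting on synthase inhibitors or removing nitric oxide. It rose at LPS 3h by 1.55 ± 0.33 in WT and 2.80 ± 0.34 in Irg1-/- cells. On restimulation it rose again, by 1.19 ± 0.32 and 1.96 ± 0.33. The adjusted p of these changes ran from 7.96e-08 to 0.0298 (edgeR). Of the 8 tested synthase partners, 2 rose and 1 fell at LPS 3h in WT cells, and 2 rose and 0 fell in Irg1-/- cells. Among them Hsp90aa1 rose in both genotypes and Nosip fell in WT cells (-1.96 ± 0.40, adjusted p = 0.000284, edgeR). Of 3 tested urea cycle and creatine genes, Gatm rose at LPS 24h in WT cells (1.12 ± 0.39, adjusted p = 0.0481, edgeR), and neither subunit of the nitric oxide receptor was tested.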

How the data were processed

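RNA was measured by 3'-end sequencing of barcoded, pooled cDNA in 24 libraries, 3 independent cultures in each of 8 groups. Reads were aligned to mm10 with STAR by the authors, who deposited whole-number counts of reads per gene. The counting program, its annotation and its use of strand are not given in the sources used here. The deposited table held 22165 genes and 5 summary lines, the latter left out of library sizes and tests (genes held 48.0% to 59.4% of each column, reads on no gene 22.1% to 33.7% and reads aligned at several places 15.1% to 22.5%). No column was left unused (0). The reads on genes ran from 3927378 to 20430359 per library (median 11539056), and no molecular identifiers are stated, so counting intervals cover counting error only.

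Groups followed the labels for genotype and treatment. Counts were scaled by TMM, genes were kept by filterByExpr (minimum count 10), and 1 model over all 8 groups was fitted with edgeR 4.0.16 (glmQLFit, glmQLFTest, R 4.3.3) to 11878 genes, with Benjamini-Hochberg adjustment over all of them and intervals at 95%. CPM are edgeR's normalized values, a prior count of 2 was added for correlations of log2 CPM, and within-prefix differences are of those log2 values. Promoter windows came from the RefSeq table. The alternatives were the Wald test of DESeq2 1.42.0, its size factors within edgeR, the culture number as a block, the label prefix as a term, a fit of the compared groups alone, a mean of at least 10 counts as the filter or no filter, and leaving out each culture.

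The 9 genes and all gene lists were chosen with earlier results of these data known. All 9 are named in every comparison. Beside them are named Acod1, the genes most correlated with Nos2 (5), Arg1 (3) and Gch1 (3), and from each list those with the 2 highest or 2 lowest called changes in a comparison. Stat2 and Hsp90aa1 fall under the same rule. Some genes that the rule names are not reported here.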

Additional observations from a re-analysis of the deposited data

How the results depend on the processing

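Of 73 log2 fold changes of single genes, 72 kept their direction and their side of the threshold with DESeq2 size factors, 72 with the DESeq2 Wald test, 72 with a mean of at least 10 counts, 71 with the replicate block, 69 of 72 with only the compared groups, 65 with no filter on low counts and 64 with the label prefix as a term. The 19 counts of called genes kept within 1.5 times their value in 129 of 133 fits of these kinds. The exceptions included the count for tolerized against LPS 3h Irg1-/- cells with the label prefix as a term, where LPS 3h rests on culture 1 alone. With no filter on low counts, the others were 2 in place of 0 for Irg1-/- against WT at LPS 3h, 1 in place of 0 for the difference in response at LPS 3h (Arg1, -3.11, adjusted p = 0.000118, edgeR) and 2 in place of 0 for the difference in response from LPS 3h to LPS 24h (Slc7a2 and Arg1). The cause was not tested. With the label prefix as a term, where culture 1 alone sets the level of Irg1-/- LPS 3h, Ass1 in that group against Unstim. was -0.28.

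When single cultures were left out, the count of called genes ran from 2 to 4 for LPS 24h against LPS 3h and from 0 to 1 for restimulation in WT cells, and from 2 to 3 for tolerized against LPS 3h Irg1-/- cells. At LPS 24h against Unstim. it ran from 4 to 6 in Irg1-/- cells and stayed at 6 in WT cells. At LPS 3h against Unstim. it ran from 5 to 6 in Irg1-/- cells and from 6 to 7 in WT cells. Nos2 changed sign in comparisons among LPS-treated groups. Its log2 fold change ran from -0.56 to 0.12 (LPS 24h against LPS 3h, WT), from -0.48 to 0.56 and from -0.18 to 0.51 (restimulation, WT and Irg1-/-), from -0.83 to 0.38 (tolerized against LPS 3h, WT), and between genotypes from -0.41 to 1.12 at LPS 3h and from -1.02 to 0.021 in tolerized cells. Slc7a2 in tolerized against LPS 3h WT cells ran from -0.0033 to 0.86.

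Whether the culture numbers pair libraries was not stated, and the main fit used no pairing. Of 84 pairs of libraries with the same number in different groups, 16 had deviations from the group means that correlated above 0.1 (range -0.11 to 0.34). Of 168 pairs with other numbers, 13 did (range -0.30 to 0.20). Of 24 libraries, 11 correlated best with a library of their own number. The block left the count of called genes at 8 in place of 7 for LPS 3h against Unstim. in WT cells (Pts added) and took away the Nos2 call in tolerized against LPS 3h Irg1-/- cells (-1.13, adjusted p = 0.0503, edgeR). DESeq2 size factors moved the median of all genes by at most 0.11 in size, in tolerized against LPS 3h Irg1-/- cells (from 0.12 to 0.01). Depth limited Nos2 and Ass1 in Unstim. libraries, where no library had more than 15 reads of either.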
